A study of Mus musculus with 11 samples.

Results

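Immediate-early genes are switched on within minutes of a stimulus, from transcription factors that a resting cell already holds. The 10 genes *Fos*, *Fosb*, *Jun*, *Junb*, *Egr1*, *Atf3*, *Nr4a1*, *Ier2*, *Dusp1* and *Zfp36* were taken by symbol from the 22836 genes of the deposited table of whole mouse colon. All 10 were found, and all 10 passed the filter of the test (mean normalized count of 10 or more over the 11 libraries), which left 16781 genes. A normalized count is the number of reads in a gene divided by 1 factor per library.

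PolyA RNA of whole colon was sequenced from 11 libraries of 3 groups, which address what loss of TFAM in T cells does to this tissue and what competent CD4 T cells change in it. TFAM maintains mitochondrial DNA. The control group (3 libraries) carried *Tfam* fl/fl, the floxed allele that all groups share, without Cre. The *Tfam* fl/fl *Cd4* Cre group (3 libraries with replicate numbers 1, 3 and 4, called KO in the sample labels and from here on) carried a Cre driven by the *Cd4* promoter, which is active in the precursors of both CD4 and CD8 T cells, so both lineages lack TFAM and the other cells of the colon do not. The transferred group (5 libraries) had the same genotype and had been given CD4 T cells of young donors with intact *Tfam*. Colons of the transfer experiment came from mice of about 10 months. No label ties a library to an animal, and the p-values therefore measure only how far these samples spread, which may be technical. In whole tissue, fewer cells of a type and less RNA per cell cannot be told apart.

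Each library held 18214741 to 19178986 reads in genes. The least abundant of the 10 genes, *Fosb*, had 21 reads in its lowest library and 402 in its highest. Some related genes described below, such as *Cxcl2* and *Egr2*, had fewer in their lowest libraries. Epithelial markers, which define the mucosa of the labelled tissue, were present in every library at a summed level of 617214 to 905996 normalized counts over 10 genes. *Tfam* itself, deleted in T cells only, cannot check the labels in whole colon, whose other cells keep the gene: its group ranges were 977 to 1083 normalized counts in control, 1040.3 to 1102 in KO and 865 to 1090.5 in transferred libraries, and its log2 fold change in KO against control colon was 0.06 (adjusted p = 0.678 from limma).

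The products of these genes fall into a few roles. FOS and FOSB pair with JUN or JUNB to form the dimeric transcription factor AP-1, and ATF3 is a stress-induced member of the same leucine zipper class. EGR1 is a zinc finger transcription factor, NR4A1 is an orphan nuclear receptor, and IER2 is a small nuclear protein. DUSP1 and ZFP36 end the response: DUSP1 removes phosphate from MAP kinases, and ZFP36 binds AU-rich messenger RNAs, such as that of TNF, and speeds their decay. Stimuli reach these genes through MAP kinases acting on SRF and its ELK partners at CArG boxes, and through cyclic AMP and calcium acting on CREB at cAMP response elements. In the gut wall, epithelial, muscle, nerve and immune cells can all make them.

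Promoters are shown for *Fosb* and *Nr4a1*, the genes that differed between KO and control colon, and for *Fos*, the close relative of *Fosb* that was not called. Each is 250 bases before and 50 bases after the transcription start, written 5′ to 3′ on the strand of the gene, with the start at base 251. The sequences are those of RefSeq (GRCm38.p6), and each matched GRCm39 at exactly 1 place: *Fosb* at chr7:19043921-19044220 (minus strand), *Nr4a1* at chr15:101164477-101164776 (plus strand), at a start inside the annotated gene, and *Fos* at chr12:85520414-85520713 (plus strand). Capitals mark the core of the cAMP response element, TGACG on either strand, and the TATA box letters TATAAA.
Fosb: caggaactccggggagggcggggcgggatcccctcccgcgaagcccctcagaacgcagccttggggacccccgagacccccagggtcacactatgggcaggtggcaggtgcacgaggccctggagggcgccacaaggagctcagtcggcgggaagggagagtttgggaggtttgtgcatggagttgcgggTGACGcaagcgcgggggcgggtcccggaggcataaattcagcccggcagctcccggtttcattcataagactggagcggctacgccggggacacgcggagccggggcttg
Nr4a1: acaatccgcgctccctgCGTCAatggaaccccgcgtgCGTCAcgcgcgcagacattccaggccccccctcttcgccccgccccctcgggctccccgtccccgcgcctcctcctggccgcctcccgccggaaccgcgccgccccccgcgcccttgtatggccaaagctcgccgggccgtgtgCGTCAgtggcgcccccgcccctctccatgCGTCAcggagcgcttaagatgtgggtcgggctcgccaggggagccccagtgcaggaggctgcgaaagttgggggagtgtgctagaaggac
Fos: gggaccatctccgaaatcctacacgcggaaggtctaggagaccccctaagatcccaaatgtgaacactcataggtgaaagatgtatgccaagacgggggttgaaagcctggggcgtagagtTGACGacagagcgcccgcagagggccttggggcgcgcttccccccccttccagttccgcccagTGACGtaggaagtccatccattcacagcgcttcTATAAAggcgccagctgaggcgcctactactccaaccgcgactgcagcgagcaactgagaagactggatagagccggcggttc

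The core TGACG stood once in the *Fosb* promoter, 60 bases upstream of the start, and in *Fos* 129 and 66 bases upstream. *Nr4a1* held it 4 times, on the other strand (CGTCA), 233, 213, 69 and 40 bases upstream. Of the 8 genes with a promoter in the RefSeq table, 6 held this core (*Fos*, *Fosb*, *Junb*, *Atf3*, *Nr4a1* and *Dusp1*), as did 20.8% of all 32851 promoters of the same length. The full palindrome TGACGTCA, which contains the core on both strands, was found in *Dusp1* alone, 143 bases upstream, and in 1.79% of all promoters. The EGR site GCGNGGGCG was found in *Fosb*, *Nr4a1* and *Zfp36* and in 5.55% of all promoters, TATAAA in *Fos* and *Junb* and in 13.6%, and the CArG box in *Zfp36* and in 1.63%. The AP-1 site TGANTCA was found in none of the 8 and in 7.81% of all promoters. Both strands were searched for each motif, and a match is a match of letters. A site farther than 250 bases upstream, or spelled with other letters, would not have been found.

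Per kilobase of the canonical transcript, the genes spanned a wide range of levels in control colon. *Jun* was highest with 1404 ± 436 normalized counts per kb, followed by *Fos* with 1252 ± 549, *Junb* with 1125 ± 613, *Zfp36* with 995 ± 200.4 and *Ier2* with 896 ± 82.3 (SD, n = 3 each). *Atf3*, *Dusp1* and *Nr4a1* came next with 645 ± 309, 565 ± 210.4 and 393 ± 140.2 per kb, and *Egr1* and *Fosb* were lowest with 191 ± 8.73 and 68.3 ± 14.5. The libraries of neighbours in this order overlapped from *Jun* down to *Nr4a1*, and those of *Nr4a1*, *Egr1* and *Fosb* did not. In KO colon *Nr4a1*, with 93.0 ± 17.3 per kb, stood below *Egr1*, with 146 ± 58.9, but the libraries of this pair overlapped. The same order and overlap held in transferred colon, with 164 ± 88.8 for *Nr4a1* and 238 ± 82.1 for *Egr1* (SD, n = 5 each). *Fosb* had the lowest mean in all 3 groups, with 6.66 ± 0.584 per kb in KO colon and 48.0 ± 34.3 (SD, n = 5) in transferred colon. In transferred colon its highest library, at 107 per kb, was above the lowest of *Nr4a1*, at 55.4.

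**Figure D1:**
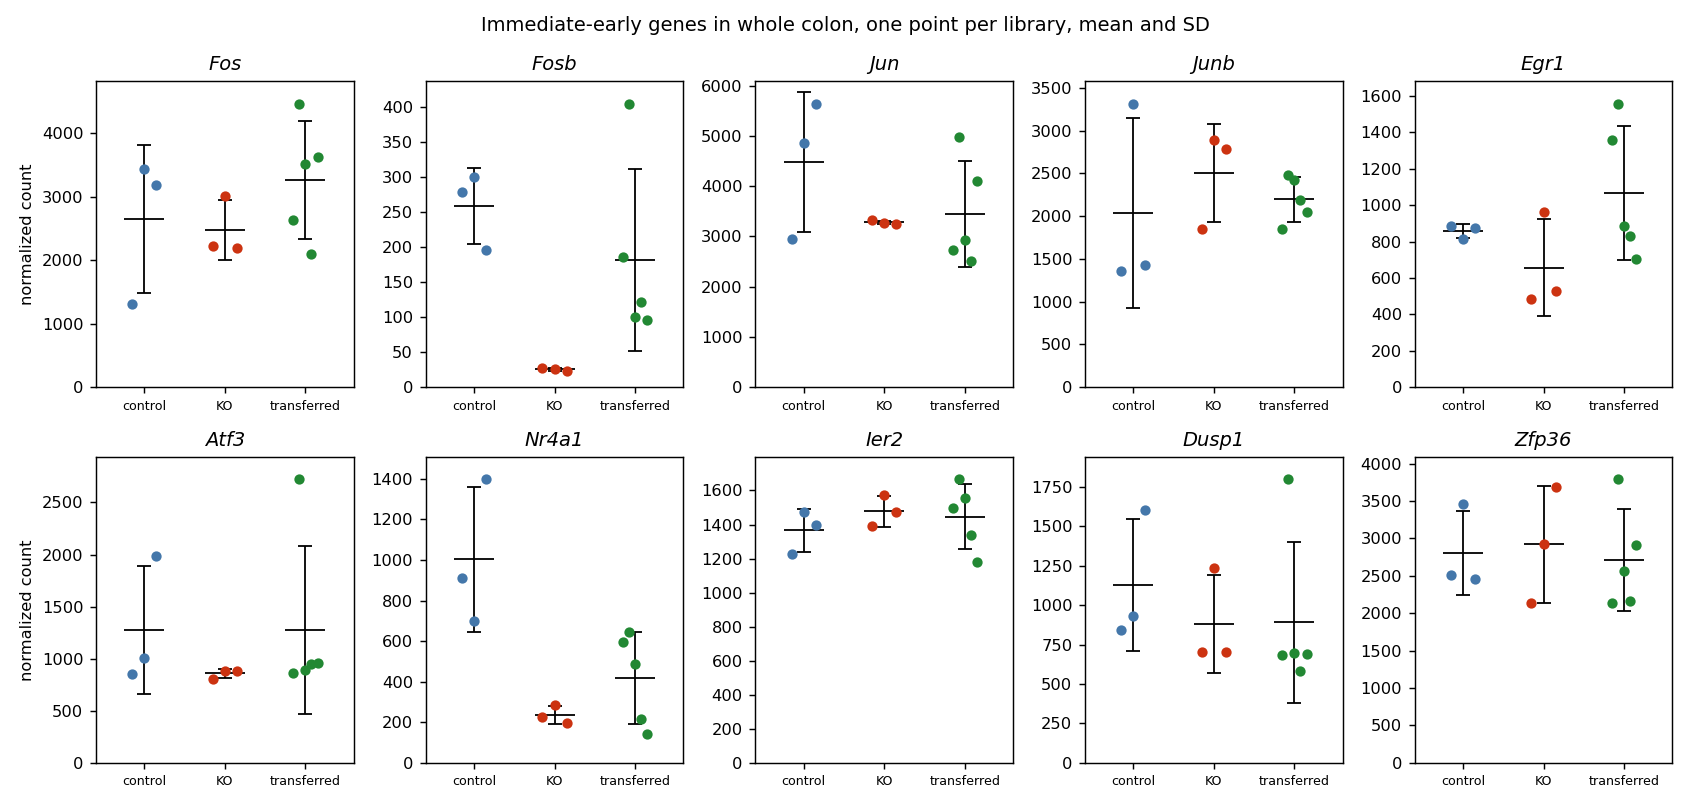
Normalized counts of the 10 genes in each colon library, 1 panel per gene with its own linear axis from 0. Points are single libraries (3 control, 3 KO, 5 transferred), horizontal lines are means and vertical bars the SD. The KO libraries of *Fosb* (23.0 to 27.4) and *Nr4a1* (198 to 285) lie below all control libraries, and transferred replicate 2 is the highest transferred library in every panel.

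Of the 10 genes, *Fosb* and *Nr4a1* were lower in KO than in control colon and the other 8 were not called. *Fosb* was 10.3-fold lower and *Nr4a1* 4.23-fold lower as ratios of group means. Their 2 calls of 10 stand against 45.5% of all 16781 genes called between these groups, 22.9% lower and 22.7% higher. The share called in either direction was below that of all genes, a difference that was not tested. In the lower direction it was near that of all genes. None of the 10 was called higher. The groups did not overlap for the same 2 genes, both lower, and for 27.9% of all genes in that direction. The median log2 fold change of the 10 genes was -0.37 and that of all genes tested 0.02. Calls are those of limma on log2(normalized count + 1) at a Benjamini-Hochberg adjusted p under 0.05, and all log2 fold changes are on this scale, on which changes of low genes come out too small.

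Among the AP-1 genes, *Fosb* (ENSMUSG00000003545, GRCm39 chromosome 7 from 19036621 to 19043976, minus strand) had 279, 300.2 and 196 normalized counts in the control libraries and 27.4, 25.2 and 23.0 in the KO libraries. Every KO library was far below every control library, and these 3 lay close together. The log2 fold change was -3.29 (standard error 0.45, adjusted p = 0.000189 from limma), and *Fosb* was called under each alternative tried, at -3.47 to -2.87. Its close relative *Fos* (chromosome 12 from 85520658 to 85524047) had 1315, 3439 and 3187 normalized counts in control and 2223, 3013 and 2186 in KO colon. The control libraries spanned the whole range of the KO libraries, and the log2 fold change was 0.01 (95% interval -0.76 to 0.78, adjusted p = 0.988 from limma). Its sign turned with quantile normalization, edgeR and DESeq2. For each 100 normalized counts of *Fos* there were 6.16 to 21.2 of *Fosb* in the control libraries and 0.836 to 1.23 in the KO libraries.

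The partners in AP-1 were not called. *Jun* (chromosome 4 from 94937271 to 94940459) had 2939, 4857 and 5640.4 normalized counts in control colon and 3319, 3259 and 3256 in KO colon, so that these 3 libraries were nearly equal and lay inside the control range (log2 fold change -0.40, 95% interval -0.99 to 0.20, adjusted p = 0.253 from limma). *Junb* (chromosome 8 from 85701113 to 85705359) had 1361, 3315 and 1427 in control and 1851, 2885 and 2786 in KO colon. Control replicate 2 alone was above the KO libraries, and the log2 fold change was 0.40 (95% interval -0.24 to 1.05, adjusted p = 0.286 from limma). Without that library *Junb* was called higher, with a log2 fold change of 0.82 (adjusted p = 0.00815 from limma). In that setting 6149 of 16760 genes were called, 3022 of them higher. *Junb* per 100 normalized counts of *Jun* was 25.3 to 68.3 in control and 55.8 to 88.5 in KO colon, and these ranges overlapped. The annotation places an antisense RNA, *Junos*, over 528 exon bases of *Jun*, and *Prdx2* over 173 of *Junb*. The study sequenced stranded mRNA, but whether the counter used strand is not given in the sources used here, and reads of such partners may be shared.

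The nuclear receptor gene *Nr4a1* (ENSMUSG00000023034, chromosome 15 from 101151980 to 101172681) had 909.9, 701 and 1397 normalized counts in the control libraries and 228, 285 and 198 in the KO libraries. The highest KO library was below the lowest control library, and the log2 fold change was -2.03 (standard error 0.51, adjusted p = 0.00704 from limma). It was called under each alternative tried, at -2.26 to -1.76. A long noncoding RNA on the opposite strand, *Gm63180*, covers 656 exon bases of *Nr4a1*. *Egr1* (chromosome 18 from 34992876 to 34998049) had 888, 815 and 876 in control colon and 483, 962 and 527 in KO colon. Replicate 3 of the latter stood above all control libraries and the other two below, and *Egr1* was not called (log2 fold change -0.46, 95% interval -1.13 to 0.21, adjusted p = 0.245 from limma). *Atf3* (chromosome 1 from 190902493 to 190950241) had 849.6, 1005 and 1982 in control and 808, 885 and 882 in KO colon, with control replicate 3 apart from the rest (log2 fold change -0.47, 95% interval -1.37 to 0.42, adjusted p = 0.368 from limma).

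*Ier2* was the steadiest of the 10 genes, with 1228, 1474 and 1395 normalized counts in control and 1389, 1573 and 1472 in KO colon. Its log2 fold change was 0.12 with the narrowest 95% interval of the set, -0.16 to 0.40. The feedback genes were not called either. *Dusp1* had 839, 929 and 1605 normalized counts in control and 701, 1238 and 699.7 in KO colon (log2 fold change -0.35, 95% interval -1.22 to 0.52). *Zfp36* had 2507, 3460.4 and 2458 in control and 2135, 2931 and 3691 in KO colon (log2 fold change 0.04, 95% interval -0.49 to 0.57). For both genes the libraries of the groups overlapped. The adjusted p of *Ier2*, *Dusp1* and *Zfp36* from limma was 0.487, 0.503 and 0.908. The intervals of *Atf3*, *Dusp1* and *Egr1* reach beyond a log2 fold change of -1, so a fall of that size is within their error.

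Marker lists of 10 genes each were compared between the same groups, where 22.9% of all genes were called lower and 22.7% higher. All 10 smooth muscle markers, all 10 fat cell markers and 9 of 10 markers of enteric neurons and glia were lower in KO than in control colon. The summed level of the smooth muscle list was 230534 to 289543 normalized counts in control, 33378 to 48722 in KO and 100275 to 162112 in transferred libraries. That of neurons and glia was 1889 to 3479, 442 to 928 and 1145 to 2335 in the same order, and that of fat cells 7584 to 20428, 3346 to 4837 and 8395 to 13309. Of the fibroblast and endothelial lists, 5 and 4 of 10 were lower and none higher. In the other direction, 10 of 10 T cell markers, 9 of 10 B cell markers, 7 of 10 macrophage markers (1 was lower) and all 7 neutrophil markers that passed the filter were higher, and of the epithelial list 2 were higher and 1 lower. *Cxcr2* and *Mpo* of the neutrophil list had no read in any control library. Mitochondrial transcripts took 4.63% to 6.73% of reads in control, 2.55% to 3.44% in KO and 3.84% to 4.82% in transferred libraries. The part of these shifts in the levels of *Fosb* and *Nr4a1* was not tested.

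**Figure D2:**
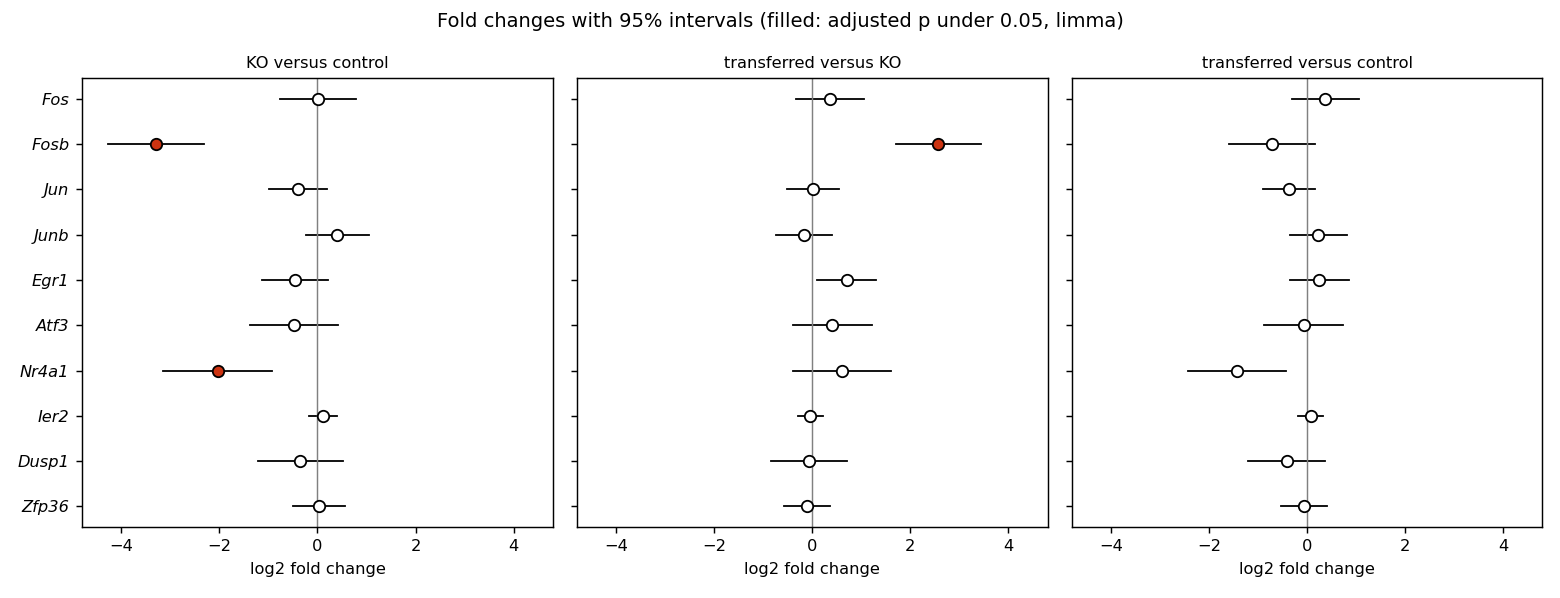
Log2 fold changes of the 10 genes with their 95% intervals from limma in the 3 comparisons. Filled points have an adjusted p under 0.05: *Fosb* (-3.29) and *Nr4a1* (-2.03) in KO against control and *Fosb* (2.57) in transferred against KO colon.

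In transferred colon *Fosb* was higher than in non-transferred KO colon, and no other of the 10 genes was called. This 1 call of 10 stands against 31.2% of all genes called between these groups, 17.0% higher and 14.2% lower. The 5 transferred libraries had 186, 404, 100.2, 122 and 95.3 normalized counts of *Fosb*, against 23.0 to 27.4 in KO colon. Even the lowest transferred library was above every non-transferred one, as for 17.6% of all genes, and the mean was 7.21-fold higher (log2 fold change 2.57 with a standard error of 0.40, adjusted p = 0.000994 from limma). The call held under each alternative tried, at 2.23 to 2.85, and without transferred replicate 2, the highest library. For each 100 normalized counts of *Fos* there were 2.63 to 9.06 of *Fosb* in transferred libraries. This comparison and that of KO with control colon share the KO libraries, so a low value there enters both.

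*Egr1* had 1359, 1558, 888, 829 and 706 normalized counts in the transferred libraries, against 483, 962 and 527 in KO colon. All 5 were above the lower pair of KO libraries, and 2 of 5 were above the third. The log2 fold change was 0.70 (standard error 0.27) and missed the threshold (adjusted p = 0.0709 from limma), but *Egr1* passed it with DESeq2 (adjusted p = 0.0450), which called 34.5% of all genes, and with limma without KO replicate 3 (1.01, adjusted p = 0.0255) or transferred replicate 5 (0.84, adjusted p = 0.0330). Without these libraries limma called 3090 of 16786 and 5273 of 16796 genes. *Nr4a1* had 597, 644, 488, 217 and 141 normalized counts in the transferred libraries. Replicates 1, 2 and 3 lay above the KO range of 198 to 285, replicate 4 inside it and replicate 5 below it (log2 fold change 0.60, 95% interval -0.39 to 1.60, adjusted p = 0.338 from limma). Over single libraries left out the log2 fold change of *Nr4a1* ran from 0.39 to 0.94.

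The other 7 genes gave values in transferred colon that overlapped those of KO colon. *Fos* ranged from 2089 to 4464 normalized counts (median 3507), *Jun* from 2515 to 4978 (median 2929) and *Junb* from 1850.1 to 2487 (median 2185). *Atf3* ranged from 863 to 2721 (median 951) and *Dusp1* from 582 to 1797 (median 689.9), in each case with 1 library far above the other 4. *Ier2* ranged from 1179 to 1665 (median 1496) and *Zfp36* from 2135 to 3789.6 (median 2569.7). Log2 fold changes of these 7 genes against KO colon ran from -0.17 for *Junb* to 0.41 for *Atf3*, and the signs of *Jun*, *Dusp1* and *Ier2* turned under at least 1 other scaling or test. The median over the 10 genes was 0.19, beside -0.02 over all genes tested.

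Between transferred and control colon none of the 10 genes was called by limma, where 1.60% of all genes were, 1.14% higher and 0.453% lower. At an unadjusted p under 0.05 there was 1 gene, *Nr4a1*, with a mean of 418 ± 226 normalized counts (SD, n = 5) in transferred and 1003 ± 357 (SD, n = 3) in control colon. All 5 transferred libraries of *Nr4a1*, of which the highest had 644, were below the lowest control library at 701, as the groups were in that direction for 5.49% of all genes. The log2 fold change was -1.43 (standard error 0.46, adjusted p = 0.126 from limma). DESeq2, which called 7.37% of all genes, called *Nr4a1* (-1.27, adjusted p = 0.0400), and edgeR, which called 1.05%, called none of the 10. *Fosb*, with a mean of 182 ± 129.7 against 258 ± 54.9, had a log2 fold change of -0.71 (95% interval -1.59 to 0.16, adjusted p = 0.349 from limma). Without transferred replicate 2 it was -1.06 and called lower (adjusted p = 0.0397 from limma). In that setting 692 of 16800 genes were called, 169 of them lower, against 268 and 76 with all libraries. The remaining 8 genes had log2 fold changes from -0.42 for *Dusp1* to 0.37 for *Fos*.

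**Figure D3:**
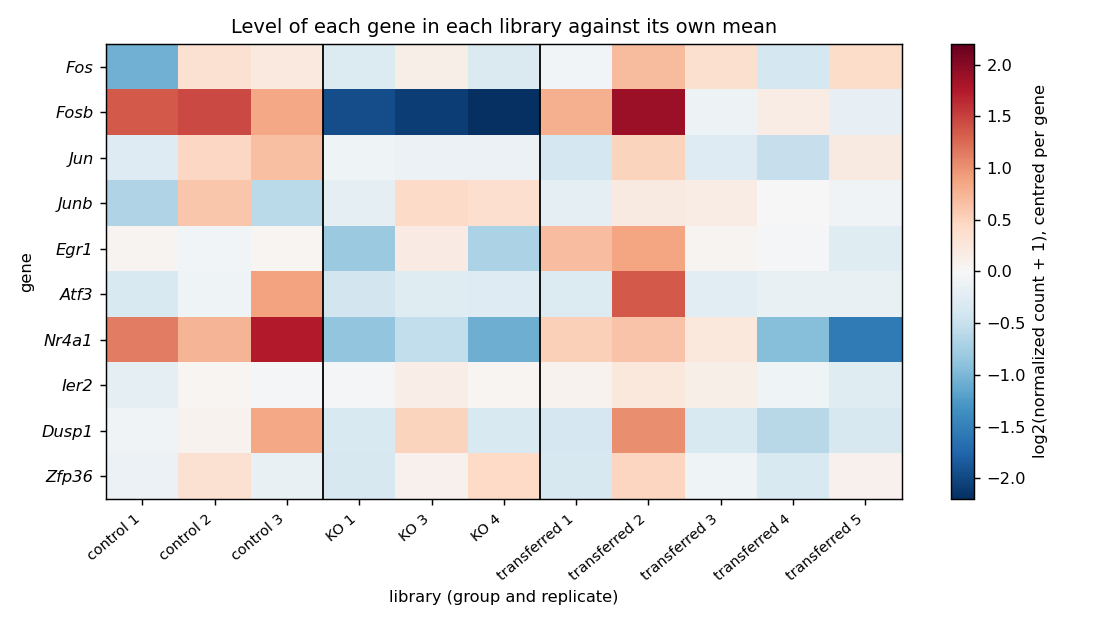
Level of each gene in each library as log2(normalized count + 1) minus the mean of that gene over all 11 libraries, red above and blue below. Columns are libraries in order of group and replicate, parted by black lines. *Fosb* is blue in all 3 KO libraries, and the column of transferred replicate 2 is red for all 10 genes.

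One library stood apart from the rest for this set. Transferred replicate 2 had the highest value of its group in 10 of 10 genes and the highest of all 11 libraries in 7 of 10. Its mean over the genes, each centred on its own mean, was 0.78 on the log2 scale, against -0.29 to 0.03 in the other transferred libraries. For *Atf3* it had 2721 normalized counts where the other 4 had 863 to 957, and for *Dusp1* 1797 where they had 582 to 699. In marker levels it had the highest summed smooth muscle level of its group (162112) and the lowest of macrophages (5387), T cells (673), B cells (207) and neutrophils (70.4). For the 10 genes, its part in the results is given above wherever leaving it out changed a call. The lowest centred mean of the 11 libraries was that of KO replicate 1, at -0.54, in which all 10 genes were below their own mean.

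Libraries of the same group differed more in these genes than in most genes of like level. The SD within groups on the log2 scale had a median of 0.47 over the 10 genes and of 0.24 over all genes tested. Set beside genes within 0.5 of its own mean log2 level, each of the 10 genes was above the median SD, and 9 of 10 were above 75% of such genes. *Nr4a1* had the largest SD, 0.74, above 98.5% of 2598 genes of like level, followed by *Fosb* (0.63), *Atf3* (0.60) and *Dusp1* (0.58). *Ier2* had the smallest, 0.16, above 50.7% of its 1982 like genes. Without transferred replicate 2, a choice made after seeing the data, the medians were 0.36 and 0.24, and 9 of 10 genes were above the median of genes of like level and 8 of 10 above 75% of them. The SD of *Nr4a1* was then 0.71 and that of *Fos* 0.50, while those of *Fosb*, *Atf3* and *Dusp1* dropped to 0.34, 0.35 and 0.38, and *Ier2* was above 42.5% of its like genes.

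**Figure D4:**
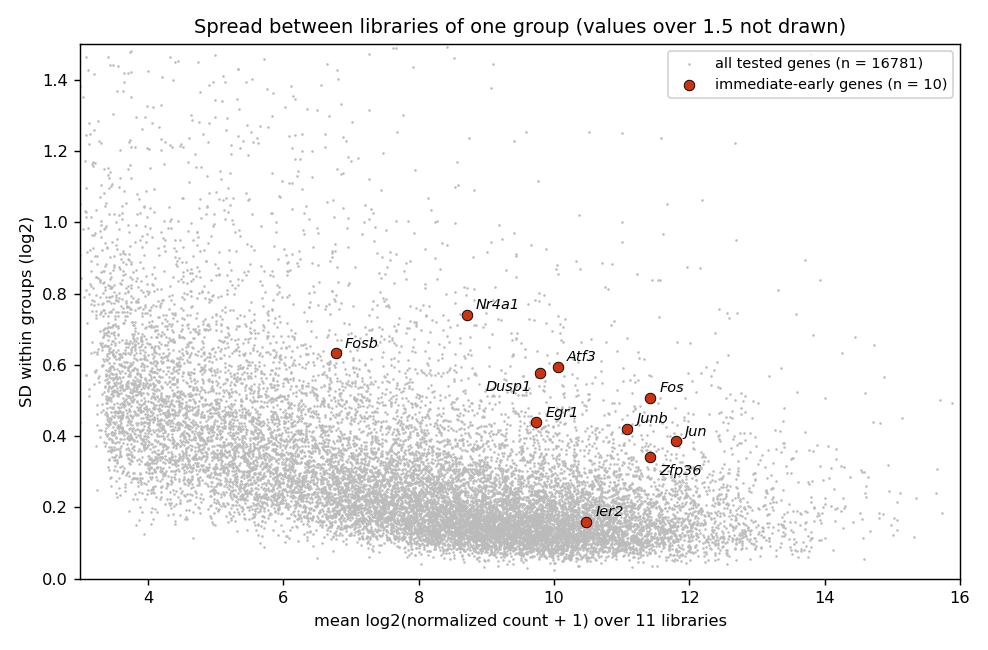
SD within groups of log2(normalized count + 1) against mean level, both on the log2 scale, for the 16781 tested genes (grey; SD over 1.5 and means outside 3 to 16 are not drawn) and the 10 immediate-early genes (red). *Nr4a1*, at an SD of 0.74, is farthest above the grey cloud of its level, and *Ier2*, at 0.16, lies within it.

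Across libraries the 10 genes tended to be high or low together, to a degree that leaned on 1 library. Over the 45 pairs of genes, the median Pearson correlation of log2 levels over 11 libraries was 0.44, with 38 pairs above 0. After the mean of each group was taken away it was 0.51, with 43 pairs above 0. Without transferred replicate 2, a choice made after seeing the data, the medians were 0.22 and 0.20, with 29 and 30 of 45 pairs above 0. The points share libraries, tissue makeup and scaling, and the values are given as a description.

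The genes most like the mean of the set, among 13362 ranked outside it, were *Errfi1* (Pearson r = 0.92), *Hbegf* (0.91), *Trib1* (0.91), *Rnd3* (0.90), *Zfand2a* (0.89) and *Zfp334* (0.87) over all 11 libraries. *Errfi1* encodes an inhibitor of the EGF receptor, *Hbegf* a ligand of that receptor, and *Trib1* a pseudokinase. *Hbegf* had 998, 1685 and 1256 normalized counts in control, 500.2, 677 and 642 in KO and 987, 1763, 952, 853 and 1044 in transferred libraries. It was low in all 3 KO libraries and highest in transferred replicate 2. After the group means were taken away, the leading genes were *Ifrd1* (0.93), *Nmrk1* (0.91), *Ppp1r15a* (0.90), *Maskbp3* (0.89), *Hbegf* (0.89) and *Zfand2a* (0.87). *Ppp1r15a* encodes the stress-induced subunit of the phosphatase that acts on translation factor eIF2. The order rested on transferred replicate 2. Without it the first 6 had values of 0.83 to 0.89 but ranks from 11 (*Hbegf*) to 77 (*Trib1*), with *Errfi1* at 32. The second 6 then had values of 0.55 to 0.85 and ranks from 11 (*Maskbp3*) to 424 (*Zfand2a*), with *Ifrd1* at 52 and *Ppp1r15a* at 219.

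Related genes were described in lists drawn up from general knowledge of the pathways, with earlier results of these data known. Of all genes, 45.5% were called between KO and control colon, 22.7% higher and 22.9% lower, and the counts of the lists stand beside these shares. Leaving out each library for the lists was chosen after seeing the data. Of 10 other AP-1 and partner genes, 3 were higher in KO than in control colon and none lower (2 or 3 with any 1 library left out), near the share of all genes for the higher ones. All 3 were of the BATF group, which pairs with JUN proteins and acts in lymphoid and myeloid cells: *Batf2* (405 ± 179 normalized counts in control, 2034 ± 734 in KO colon, SD, n = 3 each), *Batf* (20.7 ± 5.94 and 88.6 ± 0.867) and *Batf3*. *Jund*, *Fosl1* and *Fosl2* were not called, with log2 fold changes of -0.27, -0.41 and -0.46. The list had a median log2 fold change of 0.16, and in transferred against KO colon 2 of 10 were lower, *Batf2* and *Batf*, against 14.2% of all genes. With any 1 library left out 1 or 2 were lower, and *Batf2* kept its call each time. *Batf* lost its call without control replicate 3, any 1 of the KO libraries, or transferred replicate 3 or 5. Without KO replicate 1 the second lower gene was *Maff*.

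Of 6 measured relatives of EGR1 and NR4A1, *Egr2* and the EGR corepressor gene *Nab1* were higher in KO than in control colon and none lower, with a median log2 fold change of 0.22. *Egr2* had 32.0, 7.95 and 8.82 normalized counts in control and 64.6, 85.2 and 63.5 in KO colon (log2 fold change 2.32 with a standard error of 0.51, adjusted p = 0.00340 from limma), while *Egr1* was not called. Without KO replicate 4 there was 1 higher gene in the list, and without transferred replicate 1 there were 3. *Nr4a2* and *Nr4a3*, which encode the other two NR4A receptors, were not called. *Nr4a2* had 95.1, 49.7 and 114 normalized counts in control and 65.6, 107 and 61.3 in KO colon, and *Nr4a3* had 148, 62.6 and 54.0 in control and 60.7, 65.9 and 82.1 in KO colon (log2 fold changes -0.11 and -0.20). Both *Egr2* and *Nab1* were lower in transferred than in KO colon, where 14.2% of all genes were. Neither was called without KO replicate 3 or 4, where calls over all genes in either direction fell from 5240 to 3090 and 3359. The call of *Egr2* was also lost without KO replicate 1 or transferred replicate 2, 3 or 5, where *Nab1* kept its call. Of 18 relatives of the feedback genes, 3 were higher, the MAP kinase phosphatase genes *Dusp2* (2.54) and *Dusp6* (1.16) and the early gene *Ier3* (1.14), and 5 were lower, *Zfp36l1* (-0.91), *Dusp10* (-1.74), *Dusp5* (-0.91), *Spry4* (-0.65) and *Ier5* (-0.52), on the log2 scale. Their median was -0.15, and the 8 called of 18 were close to the 45.5% of all genes. With single libraries left out 2 to 3 were higher and 3 to 7 lower, the lowest count of lower genes being without control replicate 2 or 3 or KO replicate 4. After transfer 1 of the 18 was higher than in KO colon, *Zfp36l1*, and 2 were lower, *Dusp2* and *Ier3*, against 17.0% and 14.2% of all genes. None of the 18 was called without KO replicate 3, where calls over all genes fell from 5240 to 3090. Leaving out transferred replicate 2 (4254 of all genes called), *Dusp10* was also called higher and *Dusp6* and *Dusp8* lower, and *Dusp2* lost its call.

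Of 23 other early genes induced by growth factors and stress, 3 were higher and 5 lower in KO than in control colon, with a median log2 fold change of -0.00034. These 8 of 23 were a smaller share than the 45.5% of all genes called, a difference that was not tested, and 3 to 4 were higher and 3 to 5 lower with single libraries left out. *Npas4*, which encodes a transcription factor induced by calcium in neurons, fell by 3.54 on the log2 scale (standard error 0.38, adjusted p = 5.09e-05 from limma). It had 326, 254 and 189.6 normalized counts in control, 15.7, 16.5 and 33.9 in KO and 119, 139, 123, 61.0 and 66.8 in transferred libraries, without overlap between any of the 3 groups. *Ccn2*, a matrix protein gene, fell by 2.05 and *Sgk1*, *Hbegf* and *Trib1* by 1.65, 1.09 and 0.61, while *Myc* rose by 1.34, *Klf10* by 1.35 and *Csrnp1* by 1.20. Between transferred and KO colon 5 of the 23 were higher and 3 lower, against 17.0% and 14.2% of all genes. Without KO replicate 1 they were 2 and 4, and without KO replicate 3 or 4 they were 3 and 0. Calls over all genes fell from 5240 to 4895, 3090 and 3359 without KO replicates 1, 3 and 4. Against control colon *Myc* was higher (adjusted p = 0.0296 from limma), though not without control replicate 1 or 2 or transferred replicate 1, 3 or 4. In those settings 11 to 90 of all genes were called, against 268 with all libraries. Leaving out transferred replicate 2 (692 of all genes called), *Npas4* and *Ifrd1* were called lower than in control colon, as was *Ccn2* without KO replicate 4.

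Of 18 early genes driven by NF-kB, 13 were higher in KO than in control colon and none lower, beside 22.7% and 22.9% of all genes. Their median was 1.81 on the log2 scale. The 5 not called included *Tnip1* (-0.33), *Nfkbiz* (-0.07) and *Relb* (-0.05), whose log2 fold changes were below 0. *Cxcl2*, a neutrophil chemokine gene, had 0.942, 0 and 0 normalized counts in control, 177, 455 and 286 in KO and 16.4, 3.02, 10.8, 11.4 and 1.10 in transferred libraries. The log2 fold changes of *Il1b*, *Tnf* and *Tnfaip3* were 4.87, 4.08 and 2.26. After transfer 12 of the 18 were lower than in KO colon and none higher, against 14.2% and 17.0% of all genes. With single libraries left out 8 to 12 were lower, 8 being without KO replicate 3, when 17 were tested. Against control colon *Tnf* and *Bcl3* were higher, where 1.14% of all genes were. This count of 2 ran from 0 to 7 with single libraries left out. It was 7 without transferred replicate 2 or 5, where calls over all genes rose from 268 to 692 and 836. It was 0 without control replicate 1 or 2 or transferred replicate 1, 3 or 4, where 11 to 90 of all genes were called. Of 22 kinases and transcription factors upstream of the set, 5 were higher and 4 lower in KO colon, close to the 45.5% of all genes called. Without KO replicate 3 there were 3 higher and 3 lower, and without control replicate 3 or KO replicate 4 there were 4 and 2. Among them *Srf* had a log2 fold change of -0.60, *Map2k6* of -0.85, *Crem* of 0.74 and *Mapkapk2* of 0.35. In transferred against KO colon 1 of the 22 was higher and 5 lower, against 17.0% and 14.2% of all genes. With single libraries left out these were 0 to 1 and 3 to 6, with 3 lower without KO replicate 1 or 3 or transferred replicate 3.

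Of 11 heat shock genes, 3 were higher in KO than in control colon (*Dnajb1*, *Bag3* and *Hspa8*) and 1 lower, beside 22.7% and 22.9% of all genes. KO replicate 3, which had the highest value of its group in 7 of the 10 immediate-early genes, had it in all 11 of these genes, with 2856 normalized counts of *Dnajb1* against 1551 and 1625, 43524 of *Hspa8* against 27223 and 24596, and 1849 of *Hspa1b* against 358 and 287. Without it *Dnajb1* alone was called higher, as without control replicate 1, and *Hspa1a* was called lower beside *Hspb1*, while 5 were higher without KO replicate 1. The lower gene was *Hspb1*, which had 1668, 1837 and 1591 normalized counts in control and 304, 336 and 306 in KO colon. *Hspb1* was higher and *Dnajb1* lower in transferred than in KO colon, against 17.0% and 14.2% of all genes. There 4 genes were lower without KO replicate 1 and 3 without transferred replicate 5. *Hspb1* was still lower than in control colon (log2 fold change -1.03, adjusted p = 0.0296 from limma). That call was lost without any 1 of the control libraries or transferred replicate 1. In those settings 11 to 49 of all genes were called, against 268 with all libraries. With all libraries, none of the AP-1 list, the EGR and NR4A list, the feedback list or the upstream list was called between transferred and control colon by limma. Leaving out transferred replicate 2, *Batf* was called higher and *Btg1* and *Dusp10* lower. Leaving out transferred replicate 5, *Dusp2* was called higher and *Mapk3* lower. In these settings 692 and 836 of all genes were called, against 268 with all libraries.

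**Figure D5:**
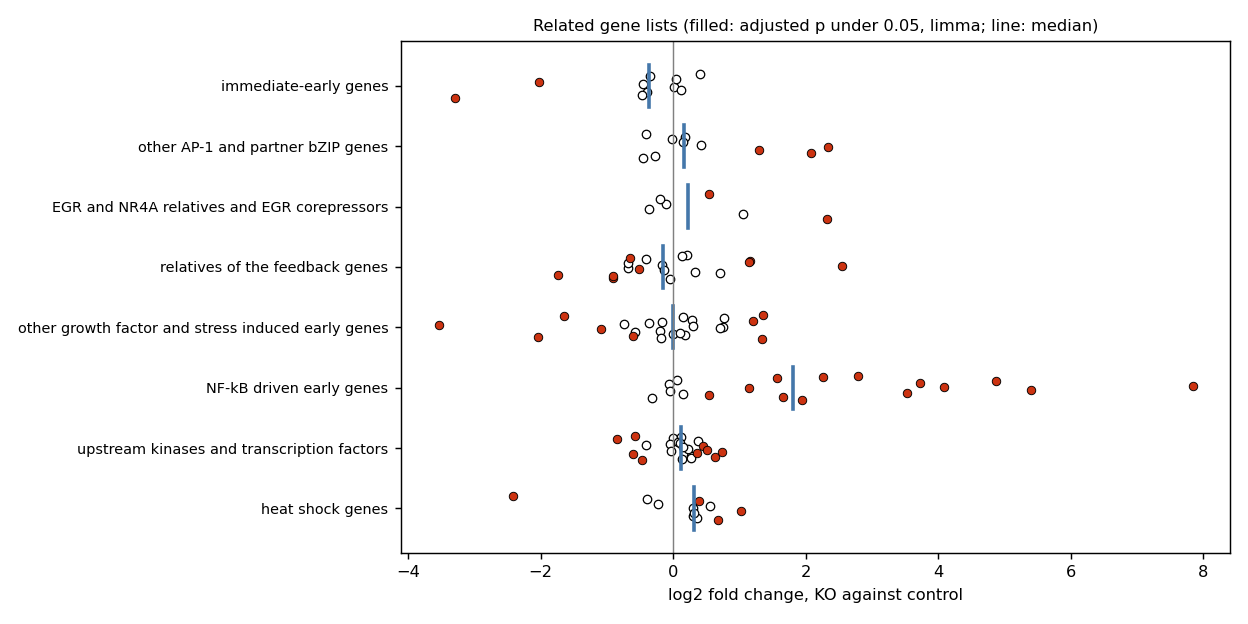
Log2 fold changes in KO against control colon for the 10 immediate-early genes and 7 lists of related genes. Each point is a gene, filled where its adjusted p from limma was under 0.05, and vertical lines are list medians. The median was -0.37 for the immediate-early genes and 1.81 for the NF-kB driven genes, where 13 of 18 points are filled and to the right of 0.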

How the data were processed

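Whole colon polyA RNA came from 3 control, 3 KO (*Tfam* fl/fl *Cd4* Cre) and 5 transferred libraries. The submitters' processing notes name HISAT2 (2.2.1), SAMtools (1.13), HTSeq (1.99.2), DESeq2 (1.40.2) and the build GRCm39. The study's methods also name STAR and more than 1 sequencing platform. Which was used for these libraries, the gene annotation and the use of strand by the counter is in each case not given in the sources used here. The deposited signal values are counts per gene that the authors divided by 1 factor per library, in 1 table of 22836 genes and 11 libraries. Such a factor leaves differences in tissue makeup in the values. Within a tolerance of 0.05, 100.0% of values were whole multiples of the step of their library (0.913 to 1.10 normalized counts), which gave back the reads. Counting error was small beside the spread between libraries for most of the 10 genes. Exceptions were *Fosb* and *Jun* in KO colon, where the 3 libraries spread no more than counting error allows (SD 2.21 and 35.5 normalized counts). For *Egr1* in control colon and *Atf3* in KO colon the SD (39.3 and 43.8) was not large beside counting error.

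Groups were compared with limma (3.58.1) in R (4.3.3) on log2 values after adding a pseudocount of 1, with a trended prior variance and 1 fit over the 3 groups, for genes with a mean normalized count of 10 or more. Genes were called at a Benjamini-Hochberg adjusted p under 0.05. The script was tested on simulated data first. Symbols, coordinates and transcript lengths came from GENCODE M39 (GRCm39), which held 99.2% of gene identifiers, and promoters from RefSeq (GRCm38.p6), which had 8 of the 10 genes. The 10 genes, 7 lists of related genes, 10 marker lists and all tests were chosen with earlier results of these data known. By rule, up to 4 genes of each related list with the smallest adjusted p between KO and control colon were named, and up to 2 between transferred and KO colon. Others, named to complete a short count or as close relatives of the 10 genes, were chosen after their values were seen. Likeness was the Pearson correlation with the mean of the 10 genes, each centred on its own mean so that genes with a wider spread weigh more, over named genes with a mean normalized count of 50 or more. The alternatives tried were pseudocounts of 0.5 and 10, a filter of 50 and none, quantile and TMM scaling, a constant prior variance, only the 2 groups of a comparison, a replicate block, the study's threshold (unadjusted p under 0.05 with a log2 fold change over 0.6), leaving out each library, and both edgeR (4.0.16) and DESeq2 (1.42.0) fitted to the reads.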

Additional observations from a re-analysis of the deposited data

Results flagged for a closer look

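In groups of 5 libraries, a value was taken up here when its gap to the nearest other library was over 0.71 of the range of the group (Dixon's test at 95%). Of 49 genes looked at in transferred colon, 10 met this. For a single gene with a normal spread, chance gives about 1 in 20. These genes share the same 5 libraries, so their count cannot be judged against that rate. In 9 of the 10 the library was transferred replicate 2. Among the immediate-early genes these were *Atf3*, with 2721 normalized counts where the other transferred libraries had 863 to 957, and *Dusp1*, with 1797 where they had 582 to 699. Among related genes, transferred replicate 2 had 658 normalized counts of *Dusp10*, 4009.9 of *Errfi1*, 1763 of *Hbegf*, 1969 of *Ifrd1*, 848 of *Ppp1r15a*, 2651 of *Trib1* and 1367 of *Zfand2a*, each the highest of its group. *Errfi1*, *Hbegf*, *Ifrd1*, *Ppp1r15a*, *Trib1* and *Zfand2a* were named for their likeness to the set, so their flags are not independent of it. The remaining value was *Egr3*, a relative of *Egr1*, with 50.2 normalized counts in transferred replicate 1. The cause of these high values was not tested.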

How the results depend on the processing

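*Fosb* (lower in KO than in control colon, higher in transferred than in KO colon) and *Nr4a1* (lower in KO than in control colon) kept their direction and their call under the 11 alternatives that leave out a library and the 11 others. The number of the 10 genes called between KO and control colon was 2 under each, except 3 without control replicate 2, the range over single libraries left out being 2 to 3. Between transferred and KO colon it was 1, and 2 with DESeq2 (34.5% of all genes), at the study's threshold (24.0%) and with the replicate block. Over single libraries left out it was 1 to 2, with 2 without KO replicate 3 or transferred replicate 5. The second gene was *Egr1*, and with the replicate block *Nr4a1* (0.89, adjusted p = 0.0450 from limma). Between transferred and control colon it was 0, and 1 with DESeq2 (7.37%) and at the study's threshold (9.91%), *Nr4a1* in both. Over single libraries left out it was 0 to 1, with *Fosb* called without transferred replicate 2, where 692 of 16800 genes were called.

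Replicate numbers are shared between groups. Correlations of same-numbered libraries ran from -0.10 to 0.39 and those of pairs with unlike numbers from -0.40 to 0.28. The highest, 0.39, was that of control and transferred replicate 1. These ranges overlap and cannot decide whether the numbers pair the samples. No label states a pairing, and the main fit assumed none. With the replicate block, 6875, 5039 and 930 of all genes were called in the 3 comparisons, against 7641, 5240 and 268 without it, transferred replicate 5 being the only library of its number.

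Of 660 log2 fold changes recomputed for the 10 genes, 624 kept direction and side of the threshold, 7 passed it anew and 29 changed sign, none of them called. *Fos* in KO against control colon was -0.035 with quantile normalization, -0.098 with edgeR and -0.11 with DESeq2 (-0.44 to 0.26 over single libraries left out), and *Zfp36* -0.016 with quantile normalization (-0.15 to 0.25). In transferred against KO colon, *Jun* was -0.20 with the replicate block (-0.12 to 0.12), *Ier2* 0.027 with quantile normalization (-0.094 to 0.031), *Dusp1* 0.026 with edgeR and 0.022 with DESeq2 (-0.36 to 0.21), and *Zfp36* ran from -0.31 to 0.083 over single libraries left out. In transferred against control colon, *Atf3* was 0.0074 with edgeR and 0.072 with the replicate block (-0.38 to 0.30), *Fos* ran from -0.071 to 0.62 and *Zfp36* from -0.19 to 0.095 over single libraries left out. The median correlation between pairs of the 10 genes moved to 0.22, and to 0.20 after group means were taken away, without transferred replicate 2. The cause of these changes was not tested. No scaling moved the median log2 fold change of all genes by over 0.1.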
